A study of Mus musculus with 4 samples.

Results

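Potassium channel genes were followed in ribosome profiling data from hearts of 15-day-old mice. They were taken as every table row whose gene symbol starts with Kcn and a lower-case letter, which gave 99 of 55382 rows. Of these, 34 had a footprint level of at least 1 FPKM (a read level corrected for gene length and library size) in 2 or more libraries and are called measured. The same minimum left 15031 rows of the whole table for testing. The symbols cover pore-forming subunits, auxiliary subunits and 6 rows that code for no channel. None of those 6 was measured.

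The KO group held 2 libraries from hearts of conditional Nat10 knockout mice, and the WT group 2 libraries from control hearts. The series text calls the control mice NAT10-FF and the knockout mice NAT10-CKO. No transgene or other agent is named. The sources used here do not name the driver of the deletion or the exons it removes. The labels name cardiomyocytes, but the protocol describes lysis of whole heart tissue, so a row can also report other cells. Nothing says that the libraries came from separate animals, so the spread behind every p-value is that of 4 libraries and may be technical.

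Potassium channels carry the outward currents that end the cardiac action potential and hold the resting membrane potential. In rodent ventricles the early fast repolarisation is carried by Kv4 channels with the accessory protein encoded by Kcnip2. Later phases use Kv1, ERG and KvLQT channels, and the resting potential depends on inward rectifiers. Channels opened by acetylcholine are concentrated in the atria and the sinus node, and those closed by ATP couple the membrane to metabolism. Many of these subunits change in level as the heart matures after birth.

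Each library gave a footprint FPKM and a translation efficiency (TE, footprint level over RNA level) per gene. The footprint FPKM divided by the TE gave the RNA level that the authors had used, called the implied RNA level here. It was available with a TE in all 4 libraries for 33 of the 34 measured members and for 12529 rows. Levels were compared with limma at an adjusted p of 0.05, footprints as log2(FPKM + 1), which understates changes of low genes, and RNA levels and TE as plain log2. The read depth of the libraries is unknown, because FPKM keeps no read total. Nat10 itself had 40.01 and 52.1 FPKM of footprints in KO against 77.3 and 73.9 in WT, a difference that missed the threshold (limma adjusted p = 0.295).

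Markers of cardiomyocytes and of fibroblasts mostly lay apart between the groups, but none of them passed limma's test for footprints. In RNA, 2 of 8 fibroblast markers were called higher, beside 4.2% of all rows, and 0 of 10 cardiomyocyte markers were called. Summed footprints of the 10 cardiomyocyte markers were 123000 and 134000 FPKM in KO against 199000 and 211000 in WT. Of these, 9 of 10 were lower in both KO libraries, beside 12.1% of all rows. All 8 fibroblast markers lay above WT in both KO libraries, beside 39.5% of all rows. Their sums were 28100 and 38300 FPKM in KO against 11600 and 8890 in WT. Other lists varied in footprints. Those above WT were 2 of 7 macrophage, 4 of 7 endothelial and 5 of 5 tested neuron and glia markers. Among 5 conduction and 5 erythroid markers tested, 0 separated the groups. In bulk tissue, fewer cells of a type and less RNA per cell cannot be told apart. Over all tested rows the median log2 difference, KO minus WT, was 0.36 for footprints, 0.22 for RNA and 0.15 for TE. Scaling the libraries by median ratios brought these medians to 0.028, 0.0053 and -0.0045, so differences are also given relative to the median of all rows.

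Among the measured members, Kcne1, the small auxiliary subunit of the slow delayed rectifier, had the highest footprint level. It read 323 and 303 FPKM in KO against 448 and 322 in WT, between 31.2% and 36.1% of the summed footprint FPKM of the 34 members in each library. FPKM is corrected for gene length, so this is not a share of footprint reads. The next highest in WT were Kcng2 (a silent modifier subunit) with a mean of 106.6 FPKM, Kcnj2 with 106.3, Kcnj11 with 99.3, Kcnip2 with 66.7 and Kcnq1 with 61.9. The WT values of Kcng2 (75.9 and 137.2), Kcnj2 (115.8 and 96.7) and Kcnj11 (97.1 and 101.4) overlapped, so their WT order is unsettled. At the low end, Kcnk5, Kcnk13 and Kcnma1 averaged 0.584, 0.752 and 1.21 FPKM in WT. The summed footprint level of the 34 members was 902 and 963 FPKM in KO and 1240 and 1032 FPKM in WT.

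**Figure D1:**
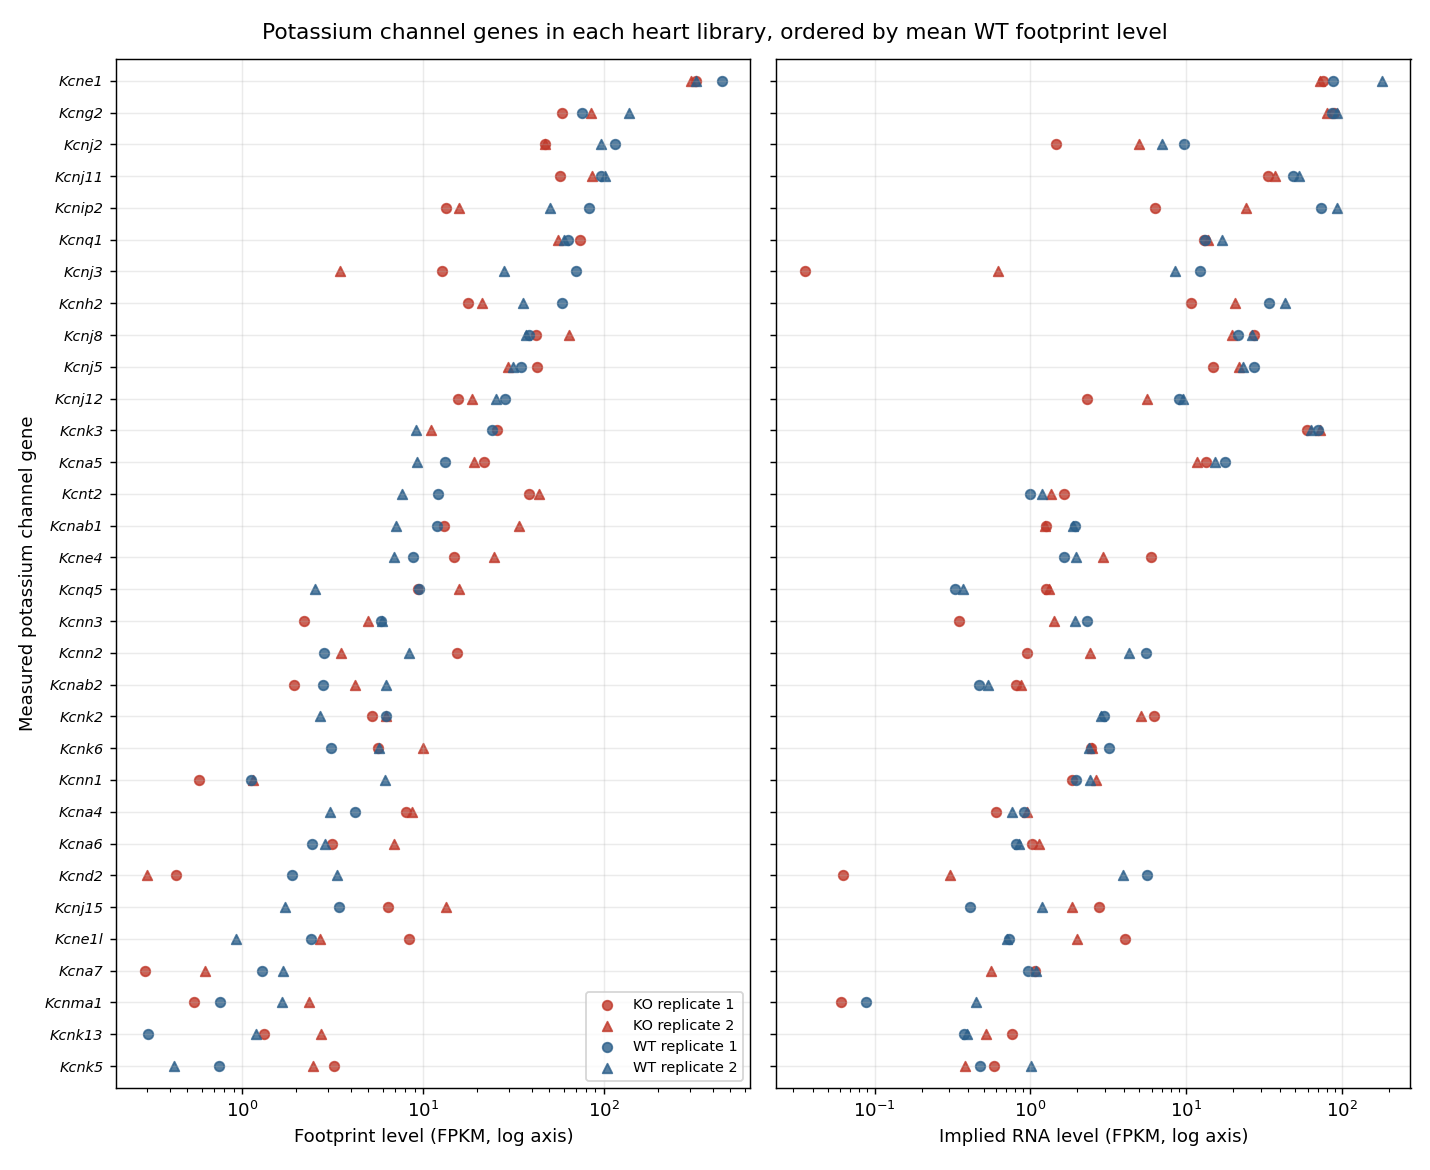
Footprint level (left, FPKM, log axis) and implied RNA level (right, FPKM, log axis) of 32 of the 34 measured potassium channel genes, with 1 point per library (KO red, WT blue) and genes ordered by mean WT footprint level. Kcne1 lies at the top between 303 and 448 FPKM, and the RNA levels of Kcnj3 and Kcnd2 in KO lie far left of those in WT.

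Of the 33 members with an RNA level, 3 fell in KO and none rose by limma's test: Kcnd2, Kcnip2 and Kcnj3. Over all rows, 1.53% fell and 4.2% rose. At an unadjusted p under 0.05 there were 10 lower and 5 higher members (15 of 33, against 28.3% of all rows). The KO libraries were both under the WT libraries in 15 members, against 18.6% of all rows, and above them in 9, against 44.2% of all rows. The median member differed by -0.23, against 0.22 over all rows.

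No member passed limma's test for footprints, where 0.126% of all rows fell and 0.253% rose. At an unadjusted p under 0.05, 9 of 34 members differed (5 lower, 4 higher), against 17.3% of all rows. The KO libraries were both under the WT libraries in 9 members, against 12.1% of all rows, and above them in 12, against 39.5%. The median member differed by 0.13, against 0.36 over all rows. These counts describe the members that passed the minimum. A member near it can have passed through its higher group alone, as Kcnd2 and Kcna7 did through WT and Kcnk5 through KO.

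**Figure D2:**
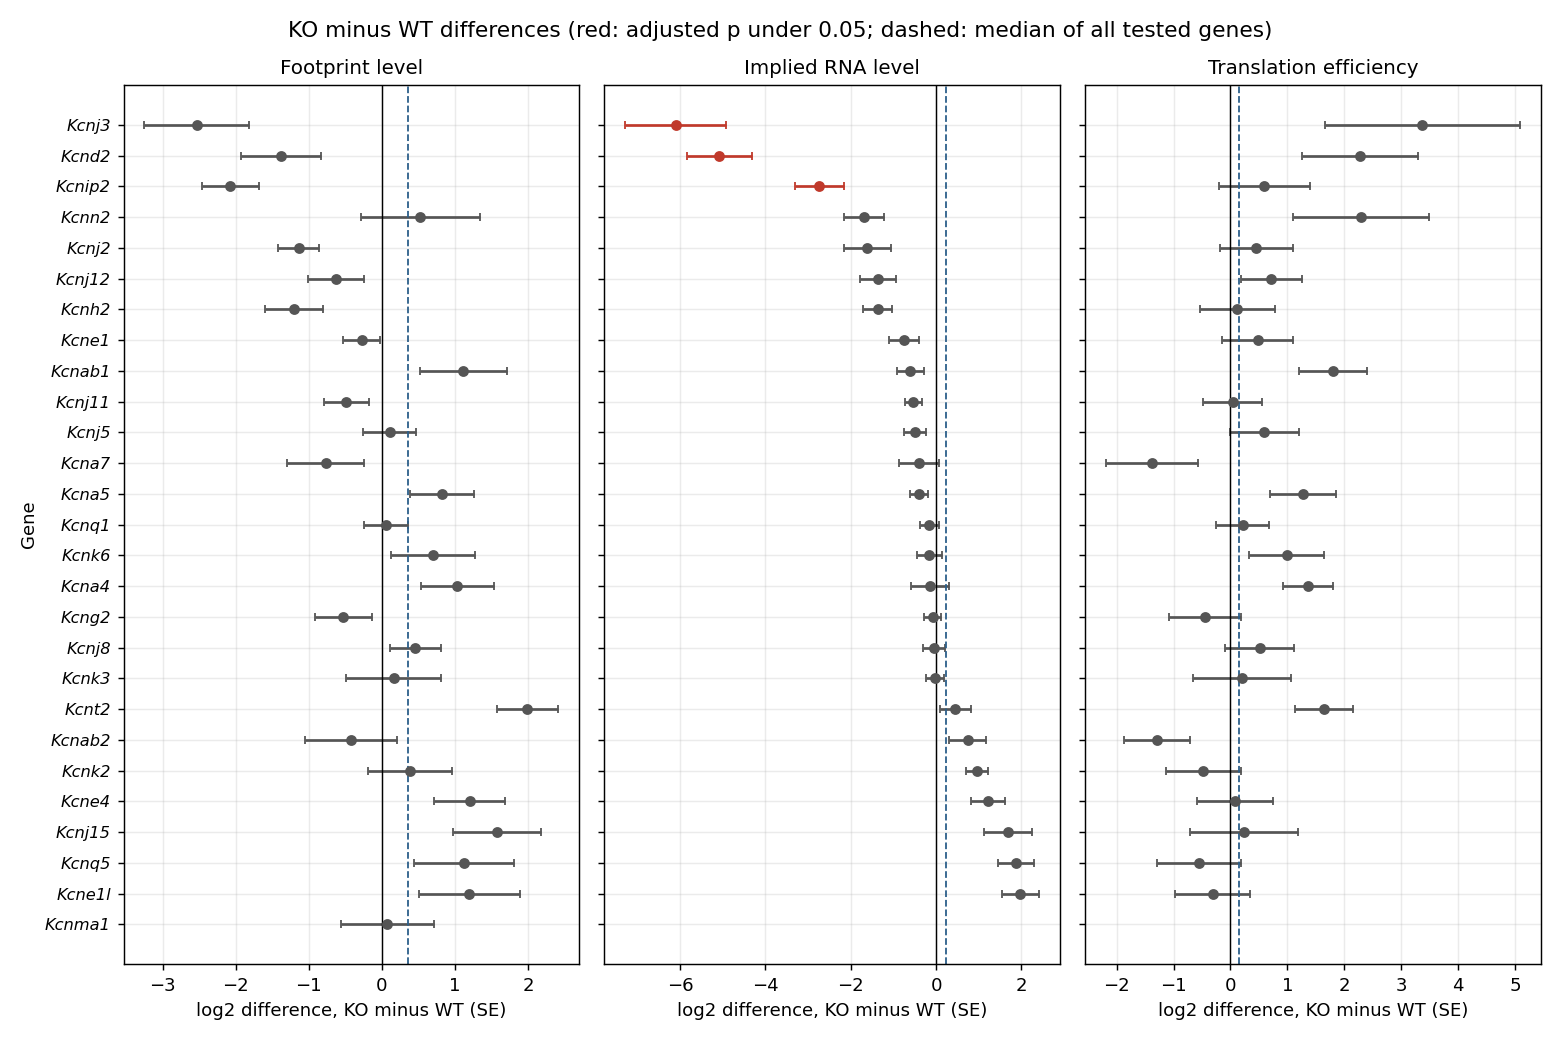
KO minus WT differences on the log2 scale with their SE for 27 members named by rule, for footprints (left), implied RNA (middle) and TE (right), with red points past an adjusted p of 0.05 and dashed lines at the median of all tested rows. Kcnj3, Kcnd2 and Kcnip2 are the red points, at -6.10, -5.08 and -2.74 in the RNA panel.

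Of the 3 genes whose RNA fell, Kcnd2 and Kcnip2 code for subunits of the fast transient outward current. Kcnd2, the pore-forming Kv4 subunit of that current in rodent ventricles, lies at chr6:21215346-21729805 (GRCm38). Its RNA level was 0.0626 and 0.305 FPKM in KO against 5.56 and 3.93 in WT. Both KO values lie far below the lower WT value. The log2 difference was -5.08 (SE 0.75, 33.8-fold, limma adjusted p = 0.0273), or -5.30 relative to the median of all rows. It was -3.94 when KO replicate 1 was left out and -6.22 when KO replicate 2 was. The fold rests on low KO values and is uncertain in size. Kcnd2 reached the minimum through its WT libraries alone. The fit on rows of at least 1 FPKM in all 4 libraries therefore does not hold it. Footprints of Kcnd2 were near the minimum, at 0.433 and 0.300 FPKM in KO against 1.90 and 3.34 in WT, and did not pass (log2 difference -1.38, SE 0.54, adjusted p = 0.280).

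Kcnip2, whose product binds Kv4 subunits and brings them to the membrane, lies at chr19:45792346-45816422. Its RNA level was 6.32 and 24.3 FPKM in KO against 73.4 and 93.0 in WT. It fell by 2.74 on the log2 scale (SE 0.57, 6.67-fold, limma adjusted p = 0.0473). Leaving out KO replicate 1 gave -1.77, and leaving out KO replicate 2 gave -3.71. Footprints were 13.5 and 15.8 FPKM in KO against 82.7 and 50.6 in WT, with no overlap. That footprint difference of -2.07 (SE 0.40) did not pass over all rows (adjusted p = 0.131). It passed when small RNA genes and unnamed models were left out of the fit (adjusted p = 0.0475). It also passed among rows of at least 1 FPKM in all 4 libraries (adjusted p = 0.0438). The footprint difference did not pass with no minimum (adjusted p = 0.292) or with median-ratio scaling (adjusted p = 0.0644). Nor did it pass without a mean-variance trend (adjusted p = 0.212) or with a pseudocount of 0.1 (adjusted p = 0.175). The calls on the RNA level of Kcnd2, Kcnip2 and Kcnj3 were lost in a fit without a mean-variance trend (adjusted p = 0.0528, 0.0945 and 0.0824).

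The third gene whose RNA fell was Kcnj3, a pore-forming subunit of the acetylcholine-activated inward rectifier of atrial cells. It lies at chr2:55411798-55598145. The RNA level was 0.0358 and 0.615 FPKM in KO against 12.3 and 8.48 in WT, with no overlap. The log2 difference was -6.10 (SE 1.19, 68.8-fold, limma adjusted p = 0.0433), which became -4.05 with KO replicate 1 left out and -8.16 with KO replicate 2 left out. A fold that rests on so low a KO value is uncertain in size. Footprints were 12.7 and 3.49 FPKM in KO against 70.2 and 28.02 in WT (log2 difference -2.53, SE 0.72, adjusted p = 0.208). The order of the 2 KO libraries is opposite in RNA and in footprints, and the TE of 355 in KO replicate 1 follows from the low RNA value.

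Start-site sequences of the 3 genes whose RNA fell are shown because they are the members past the threshold. Each holds 250 bases before and 50 after a RefSeq transcript start (GRCm38.p6), 5′ to 3′ on the gene's strand. Kcnd2 is at chr6:21215096-21215395 (plus strand), Kcnip2 at chr19:45816014-45816313 (minus strand) and Kcnj3 at chr2:55435720-55436019 (plus strand). Capitals mark matches, on either strand, to the GC box GGGCGG and the CCAAT box.
Kcnd2: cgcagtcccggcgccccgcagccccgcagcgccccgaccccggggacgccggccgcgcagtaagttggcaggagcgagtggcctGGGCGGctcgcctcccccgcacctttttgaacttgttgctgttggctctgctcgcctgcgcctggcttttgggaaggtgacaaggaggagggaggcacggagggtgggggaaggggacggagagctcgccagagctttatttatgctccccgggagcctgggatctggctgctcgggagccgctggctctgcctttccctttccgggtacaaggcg
Kcnip2: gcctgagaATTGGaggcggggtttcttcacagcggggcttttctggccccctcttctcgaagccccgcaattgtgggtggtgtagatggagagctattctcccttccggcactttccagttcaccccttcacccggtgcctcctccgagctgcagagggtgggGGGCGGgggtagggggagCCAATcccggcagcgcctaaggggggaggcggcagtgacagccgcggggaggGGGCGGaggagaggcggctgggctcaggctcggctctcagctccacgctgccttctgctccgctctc
Kcnj3: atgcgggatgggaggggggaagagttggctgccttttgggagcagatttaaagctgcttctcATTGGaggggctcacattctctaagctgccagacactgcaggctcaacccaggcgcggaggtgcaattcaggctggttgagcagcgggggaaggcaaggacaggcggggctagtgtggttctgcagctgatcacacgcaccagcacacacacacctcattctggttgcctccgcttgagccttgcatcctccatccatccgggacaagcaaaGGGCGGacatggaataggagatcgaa

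The GC box was present in all 3 windows and in 35.7% of all 32851 windows of the same length. CCAAT was present in Kcnip2 and Kcnj3 and in 37.4% of all windows. GC content was 68.7% in Kcnd2, 67% in Kcnip2 and 57.7% in Kcnj3, with a median of 52.7% over all windows. Both strands were also searched for the TATA box TATAAA (13.6% of all windows), the GATA motif AGATAA (11.2%) and the MCAT motif CATTCC (14.7%). The other motifs searched were AAGGTCA, bound by estrogen-related receptors (4.72% of all windows), the Iroquois motif ACANNTGT (7.38%) and the MEF2 motif (CTA and TAG with any 4 bases between, 3.69%). These letters are not in the 3 windows. The marked matches do not overlap one another.

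Because Kcnj3 is a gene of the atria, atrial markers were read beside it. Myl7, the atrial myosin light chain, had RNA levels of 44.1 and 0.251 FPKM in KO against 0.262 and 94.2 in WT. Myl4, another atrial light chain, had RNA levels of 46.3 and 2.65 FPKM in KO against 2.497 and 44.99 in WT. Sln, sarcolipin, had RNA levels of 1.996 and 0.1096 FPKM in KO against 0.0565 and 6.33 in WT. All 3 were high in KO replicate 1 and WT replicate 2 and low in the other libraries, in RNA and in footprints. They are 3 of the 10 atrial markers, and others followed another order. Sbk2 and Sbk3 had footprints below WT in both KO libraries, as Kcnj3 did. Sbk2 had 7.93 and 0 FPKM in KO against 11.6 and 13.4 in WT. Sbk3 had 1.18 and 0 FPKM in KO against 3.25 and 8.09 in WT. Nppa, Dkk3 and Nr2f2 lay above WT in both KO libraries, and Bmp10 and Stard10 overlapped. Beside these, the Kcnj3 RNA level was 0.0358 and 0.615 FPKM in KO against 12.3 and 8.48 in WT. The summed footprints of all 10 atrial markers were 23000 and 64200 FPKM in KO against 751 and 1630 in WT, most of it from Nppa. Nppa alone had 21970 and 63920 FPKM in KO against 565 and 1223 in WT (limma adjusted p = 0.0407). It was highest in KO replicate 2, where Myl7, Myl4 and Sln were low, so the sum mainly reports Nppa. Bmp10 was also listed at 0 for footprints in KO replicate 2, and no marker was at 0 in every library. The part of atrial tissue in the Kcnj3 values was not tested.

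**Figure D3:**
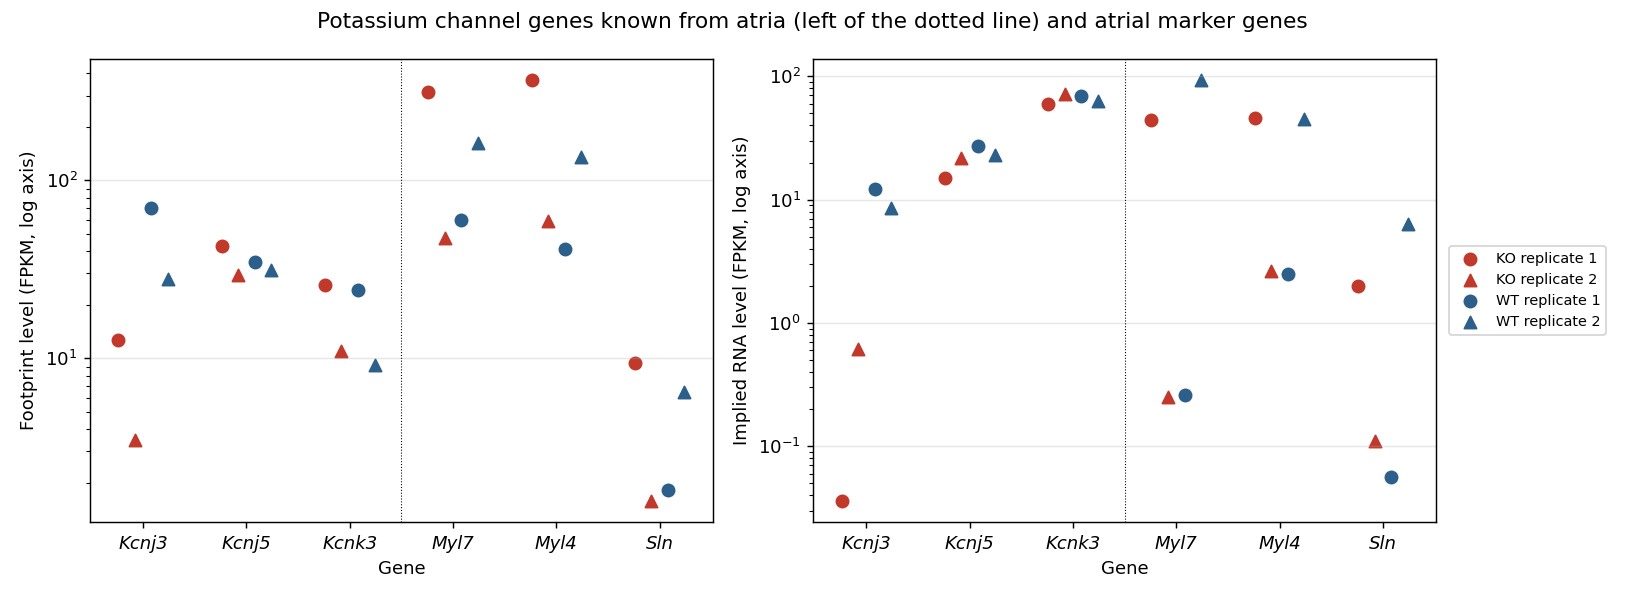
Footprint level (left) and implied RNA level (right) in FPKM on log axes for Kcnj3, Kcnj5 and Kcnk3 and for the atrial markers Myl7, Myl4 and Sln, with 1 point per library. These 3 of the 10 atrial markers are high in KO replicate 1 and WT replicate 2, and Kcnj3 RNA is at 0.0358 and 0.615 FPKM in KO, while Sbk2 and Sbk3, not drawn, had footprints below WT in both KO libraries.

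Kcnj5 is the partner subunit of Kcnj3 in the atrial channel. Its footprints were 43.0 and 29.6 FPKM in KO against 34.8 and 31.6 in WT, and the groups overlapped. The log2 difference of 0.10 (95% interval -0.78 to 0.99, adjusted p = 0.903) turned to -0.26 with median-ratio scaling. Its RNA level was 14.9 and 21.6 FPKM in KO against 27.3 and 23.1 in WT (log2 difference -0.49, SE 0.25, adjusted p = 0.256), with both KO values below both WT values. The difference between Kcnj3 and Kcnj5 was not tested. Chrm2, the muscarinic receptor upstream of this channel, had RNA levels of 9.15 and 18.3 FPKM in KO against 30.5 and 27.0 in WT (adjusted p = 0.0929). Its footprints overlapped, at 71.97 and 153.7 FPKM in KO against 89.5 and 70.1 in WT.

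Inward rectifiers that set the resting potential also lay below WT. Kcnj2, the main subunit of the cardiac inward rectifier current, had 47.3 and 47.6 FPKM of footprints in KO against 115.8 and 96.7 in WT. The KO values are close together and under the lower WT value. The difference of -1.14 (SE 0.28, 2.204-fold) did not pass (adjusted p = 0.174). Its RNA level was 1.47 and 4.95 FPKM in KO against 9.68 and 6.998 in WT (log2 difference -1.61, SE 0.55, adjusted p = 0.124). Kcnj12, a second subunit of that current, had RNA levels of 2.30 and 5.59 FPKM in KO against 9.03 and 9.53 in WT (log2 difference -1.37, SE 0.42, adjusted p = 0.0999). Footprints of Kcnj12 were 15.6 and 18.8 FPKM in KO against 28.5 and 25.5 in WT (log2 difference -0.62, SE 0.38, adjusted p = 0.428).

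Kcnh2 codes for the ERG channel of the rapid delayed rectifier and was the only measured member of its 8-row group. The RNA level was 10.6 and 20.6 FPKM in KO against 34.0 and 42.9 in WT. The difference of -1.37 (SE 0.34, 2.58-fold) missed the threshold (adjusted p = 0.0645) and passed with median-ratio scaling (-1.59, adjusted p = 0.0472). Without a mean-variance trend it did not pass (adjusted p = 0.117). Footprints were 17.8 and 21.1 FPKM in KO against 59.0 and 35.9 in WT (log2 difference -1.21, SE 0.40, adjusted p = 0.237). Both readouts of Kcnh2 separated the groups.

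**Figure D4:**
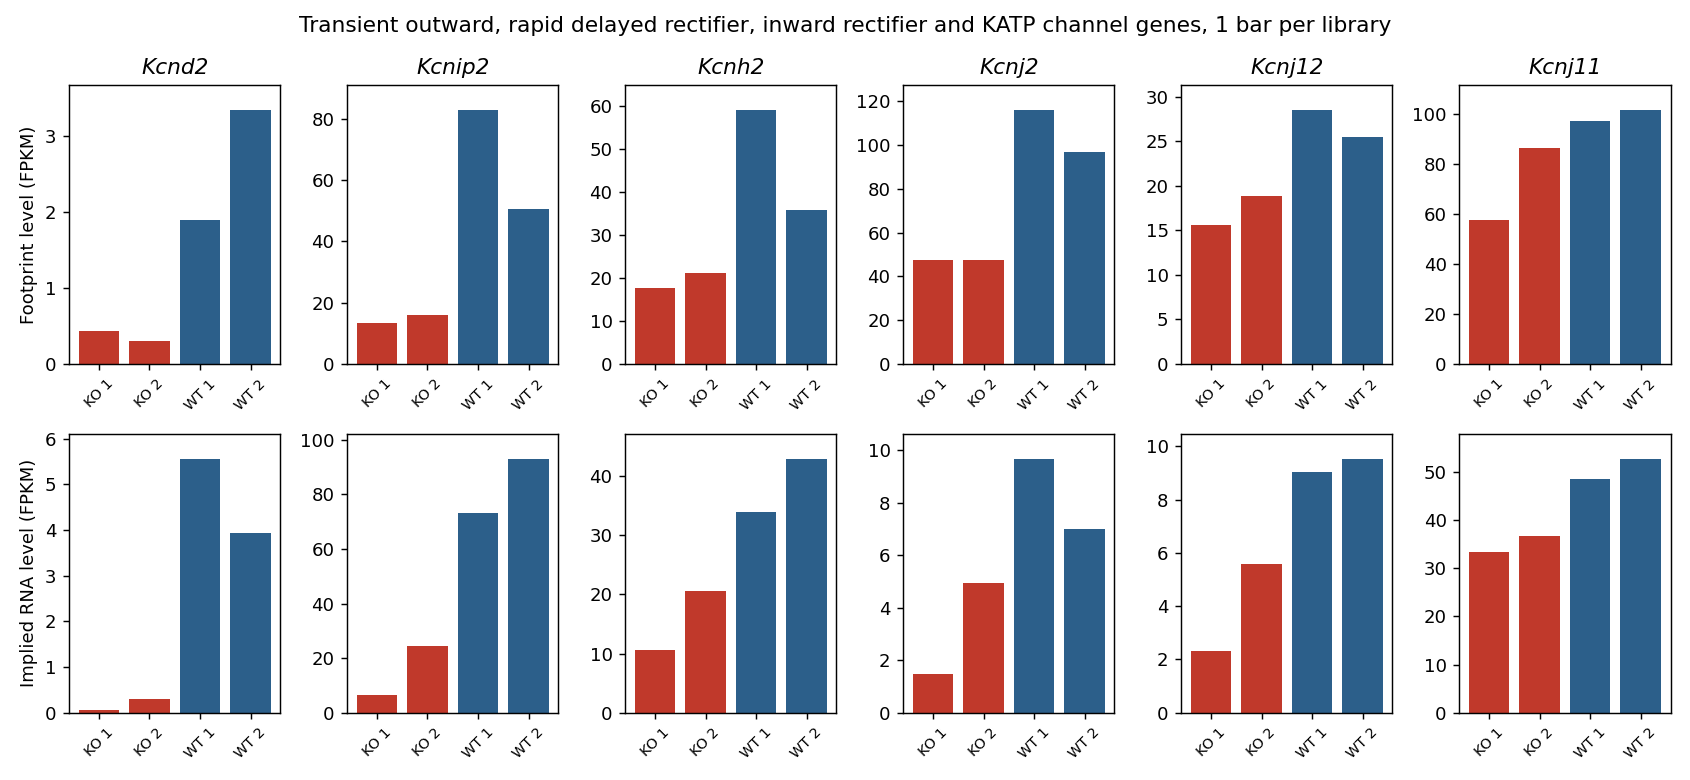
Footprint level (top) and implied RNA level (bottom) in FPKM of Kcnd2, Kcnip2, Kcnh2, Kcnj2, Kcnj12 and Kcnj11, with 1 bar per library (KO red, WT blue) and linear axes from 0. Every KO bar is below both WT bars of its panel, and of these genes only Kcnd2 and Kcnip2 passed the test, in RNA. The genes drawn are a selection. Of related members not drawn, Kcna4 and Kcnj8 had footprints above WT in both KO libraries and Kcnj5 footprints overlapped, while Kcnj3 lay below WT.

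The slow delayed rectifier pair differed less. Kcnq1, its pore-forming subunit, had 73.9 and 55.8 FPKM of footprints in KO against 63.3 and 60.4 in WT, and the groups overlapped. The log2 difference of 0.05 (95% interval -0.68 to 0.79, adjusted p = 0.940) was -0.32 with median-ratio scaling. The RNA level of Kcnq1 was 12.95 and 13.8 FPKM in KO against 13.2 and 16.9 in WT (log2 difference -0.16, adjusted p = 0.673). Kcnq1ot1, a noncoding RNA transcribed antisense within Kcnq1, stayed between 0.0360 and 0.161 FPKM of footprints in the 4 libraries. The sources used here do not say whether reads were counted by strand. Kcne1 had RNA levels of 75.6 and 71.9 FPKM in KO against 86.7 and 179 in WT (log2 difference -0.76, SE 0.35, adjusted p = 0.206). Its footprint difference was -0.28 (95% interval -0.90 to 0.34, adjusted p = 0.586).

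Among the subunits of ATP-sensitive channels, Kcnj11 is the pore of the sarcolemmal channel and Kcnj8 the pore of the vascular form. Kcnj11 had RNA levels of 33.4 and 36.8 FPKM in KO against 48.6 and 52.8 in WT (log2 difference -0.53, SE 0.20, adjusted p = 0.143). Its footprints were 57.6 and 86.3 FPKM in KO against 97.1 and 101.4 in WT. Kcnj8 had 42.3 and 64.7 FPKM of footprints in KO against 38.4 and 37.4 in WT (adjusted p = 0.516), while its RNA levels overlapped. The summed footprints of the 10 smooth muscle and pericyte markers, a list that holds Kcnj8, were 4970 and 4660 FPKM in KO against 5320 and 5340 in WT, with Acta2 the largest part. Of these 10, 6 had footprints above WT in both KO libraries, Kcnj8 itself among them, beside 39.5% of all rows. Below WT in both KO libraries lay 1 (Acta2), beside 12.1% of all rows. The list had a median log2 difference of 0.46, beside 0.36 over all rows, and none was at 0. Tagln was the 1 called higher (adjusted p = 0.0407). The part of these cells in the Kcnj8 level was not tested. Abcc9, the sulfonylurea receptor that assembles with these pores in ventricle and vessels, had RNA levels of 19.7 and 44.4 FPKM in KO against 77.4 and 76.4 in WT (adjusted p = 0.0771). Abcc9 footprints overlapped between the groups. Abcc8, the other sulfonylurea receptor, had RNA levels of 8.09 and 13.2 FPKM in KO against 17.9 and 17.5 in WT (adjusted p = 0.136), and its footprints overlapped as well.

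No voltage-gated Kv1 subunit passed in any readout. Kcna5, of the ultrarapid delayed rectifier, had 21.8 and 19.2 FPKM of footprints in KO against 13.3 and 9.31 in WT (log2 difference 0.82, SE 0.44, adjusted p = 0.374). Its RNA level lay the other way, at 13.4 and 11.6 FPKM in KO against 17.7 and 15.3 in WT (log2 difference -0.40, SE 0.22, adjusted p = 0.274). Kcna4, of the slow transient outward current, had 8.06 and 8.75 FPKM of footprints in KO against 4.20 and 3.07 in WT (log2 difference 1.03, SE 0.50, adjusted p = 0.346). Its RNA level overlapped between groups, at 0.603 and 0.948 FPKM in KO against 0.907 and 0.763 in WT. Only the Kcna5 groups were apart in opposite orders in footprints and RNA, among the 4 measured Kv1 subunits.

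Kcng2, whose product forms no channel alone, had RNA levels of 88.3 and 80.1 FPKM in KO against 85.8 and 92.3 in WT (log2 difference -0.08, 95% interval -0.55 to 0.39). Kcna7 had 0.292 and 0.629 FPKM of footprints in KO against 1.29 and 1.68 in WT (adjusted p = 0.474). Kcna6, another Kv1 subunit, had 3.16 and 6.91 FPKM of footprints in KO against 2.44 and 2.898 in WT. The Kcna6 RNA level was 1.03 and 1.14 FPKM in KO against 0.810 and 0.842 in WT, also without overlap (adjusted p = 0.526).

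Neither measured cytoplasmic beta subunit of Kv1 channels passed in any readout. Kcnab1 had 13.2 and 33.9 FPKM of footprints in KO against 12.01 and 7.09 in WT (log2 difference 1.12, SE 0.60, adjusted p = 0.380). The RNA level of Kcnab1 was 1.26 and 1.25 FPKM in KO against 1.94 and 1.87 in WT (log2 difference -0.60, adjusted p = 0.263). Kcnab2 had RNA levels of 0.810 and 0.869 FPKM in KO against 0.470 and 0.537 in WT, and its footprints overlapped.

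Several members with low WT levels lay above WT. Kcnt2, a sodium-activated channel subunit, had the highest footprint difference of the measured members, with 38.6 and 44.2 FPKM in KO against 12.1 and 7.67 in WT. The difference of 1.99 (SE 0.42, 3.97-fold), or 1.63 relative to the median of all rows, did not pass (adjusted p = 0.152). Its RNA level was 1.65 and 1.35 FPKM in KO against 0.998 and 1.19 in WT (log2 difference 0.45, SE 0.36, adjusted p = 0.430). Kcnq5, a KvLQT-family subunit known from nerve and smooth muscle, had RNA levels of 1.25 and 1.31 FPKM in KO against 0.329 and 0.372 in WT (log2 difference 1.87, SE 0.43, adjusted p = 0.0544). Its footprints overlapped, at 9.44 and 15.8 FPKM in KO against 9.50 and 2.52 in WT.

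Kcne1l, an auxiliary subunit on the X chromosome also named Kcne5, had RNA levels of 4.02 and 1.98 FPKM in KO against 0.726 and 0.705 in WT. The log2 difference of 1.98 (SE 0.43, 3.94-fold) missed the threshold (adjusted p = 0.0503). It passed when small RNA genes and unnamed models were left out (adjusted p = 0.0453). It did not pass with median-ratio scaling (adjusted p = 0.0598) or without a mean-variance trend (adjusted p = 0.0729). Kcne4, an auxiliary subunit that inhibits KvLQT channels, had RNA levels of 5.94 and 2.94 FPKM in KO against 1.63 and 1.97 in WT (adjusted p = 0.112). Footprints of Kcne4 were 15.0 and 24.6 FPKM in KO against 8.81 and 6.92 in WT (adjusted p = 0.286). Kcnj15, an inward rectifier best known from kidney, had 6.44 and 13.5 FPKM of footprints in KO against 3.46 and 1.73 in WT (log2 difference 1.57, SE 0.61, adjusted p = 0.276). Some markers of other cells also lay above WT in both KO libraries, as did 44.2% of all rows in RNA and 39.5% in footprints. In RNA these were 4 of 8 fibroblast markers (1 below) and 6 of 7 macrophage markers. So were 2 of the 4 neuron and glia markers with an RNA level. Of 7 endothelial markers 1 lay above and 1 below in RNA, and of 10 smooth muscle and pericyte markers 3 and 3. Footprints lay above WT in 8 of 8 fibroblast, 2 of 7 macrophage and 5 of 5 tested neuron and glia markers. They also did in 4 of 7 endothelial markers and in 0 of 5 erythroid markers. Summed footprints were 37.7 and 42.3 FPKM in KO against 12 and 14.4 in WT for neuron and glia markers, with Th at 0. For macrophage markers they were 597 and 1310 FPKM in KO against 415 and 654 in WT. The part of other cell types in the levels of Kcnq5, Kcne1l, Kcne4 and Kcnj15 was not tested.

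Tandem-pore channels carry background currents, and 5 of their 14 rows were measured. Kcnk3, the acid-sensitive channel of atrial and ventricular cells, had RNA levels of 59.5 and 71.5 FPKM in KO against 69.5 and 63.1 in WT (log2 difference -0.02, 95% interval -0.52 to 0.48). Its footprints were 25.7 and 11.1 FPKM in KO against 24.3 and 9.22 in WT, so each replicate spread exceeded the group difference. Kcnk2, a stretch-sensitive channel, had RNA levels of 6.23 and 5.15 FPKM in KO against 2.95 and 2.85 in WT (log2 difference 0.96, SE 0.26, adjusted p = 0.0773). Its footprints overlapped, at 5.27 and 6.23 FPKM in KO against 6.22 and 2.69 in WT. Kcnk6 overlapped in both readouts. Kcnk13 had 1.32 and 2.72 FPKM of footprints in KO against 0.302 and 1.20 in WT.

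Small-conductance calcium-activated channels gave mixed values. Kcnn2 had RNA levels of 0.955 and 2.39 FPKM in KO against 5.50 and 4.30 in WT (log2 difference -1.69, SE 0.47, adjusted p = 0.0796). Its footprints overlapped, at 15.5 and 3.55 FPKM in KO against 2.86 and 8.36 in WT. Kcnn3 had RNA levels of 0.346 and 1.42 FPKM in KO against 2.31 and 1.94 in WT (adjusted p = 0.174). For Kcnn1, footprints overlapped at 0.577 and 1.15 FPKM in KO against 1.13 and 6.17 in WT. Kcnma1, the large-conductance channel of smooth muscle, had 0.544 and 2.35 FPKM of footprints in KO against 0.755 and 1.66 in WT. It has no TE in KO replicate 2 and was left out of the RNA and TE fits.

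The low RNA values were often lowest in KO replicate 1. Of the 15 members whose RNA lay below WT in both KO libraries, 12 were lower in KO replicate 1 than in KO replicate 2, against 76.2% of the 2333 such rows in the whole table. This ordering also moved with gene span over all protein-coding rows. The median log2 ratio of KO replicate 1 to KO replicate 2 was 0.29 for the 5076 genes of up to 20 kb, -0.04 for the 5139 genes of 20 to 100 kb and -0.27 for the 1720 longer genes. The median RNA difference, KO minus WT, was 0.39, 0.16 and -0.06 in the same classes, while that of footprints was 0.345, 0.385 and 0.373. For the members the median RNA differences, KO minus WT, were -0.40 (9 genes), -0.14 (15 genes) and -0.60 (9 genes). Their median log2 ratio of KO replicate 1 to KO replicate 2 was 0.204, -0.265 and -0.0891, which does not fall steadily with span. The part of gene span in the RNA differences was not tested. Of the called members, Kcnd2 and Kcnj3 span over 100 kb, and Kcnip2 lies in the class of 20 to 100 kb. Without KO replicate 1 the RNA differences of Kcnd2, Kcnip2 and Kcnj3 were -3.94, -1.77 and -4.05. That fit assumes that the lone KO library varies like the WT group, and it does not test gene span.

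**Figure D5:**
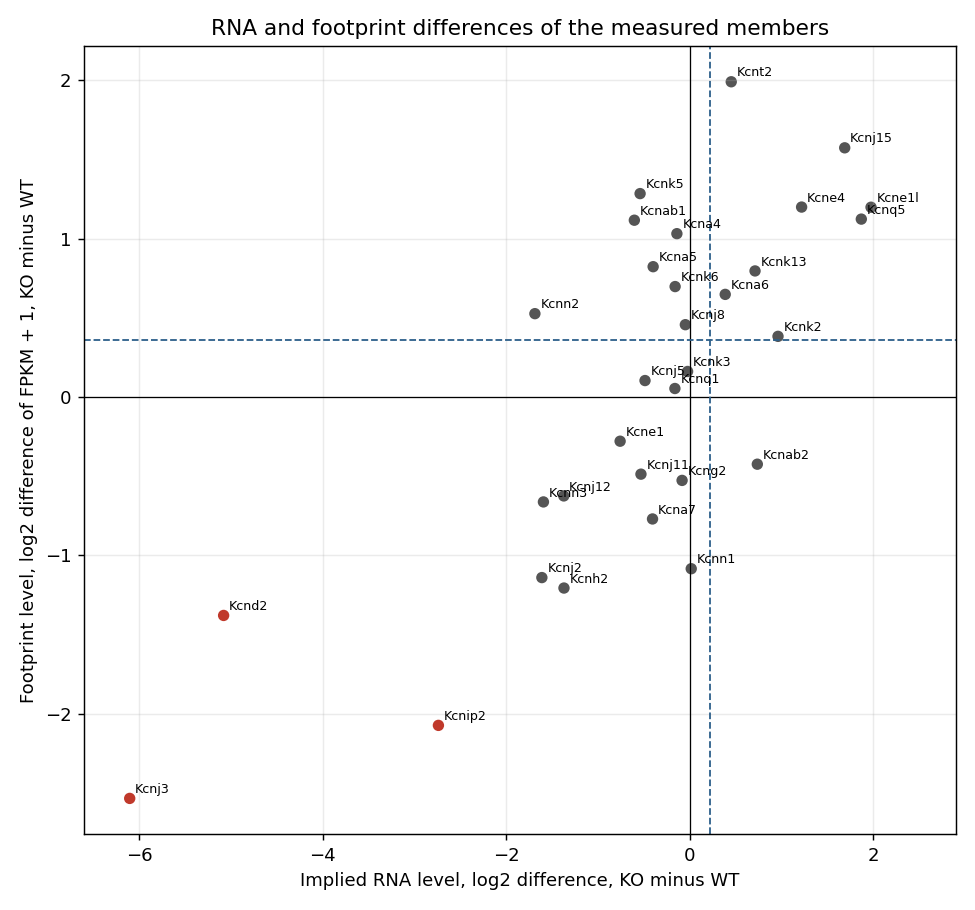
KO minus WT difference of the implied RNA level (horizontal, log2) and of the footprint level (vertical, log2 of FPKM + 1) for 31 of the 33 measured members with both values, with red points past an adjusted p of 0.05 in RNA and dashed lines at the medians of all tested rows. Kcnj3, Kcnd2 and Kcnip2 are low on both axes, and Kcnt2 has the highest footprint difference (1.99) beside an RNA difference of 0.45.

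TE compares footprints with RNA gene by gene. No member and no row of the table passed limma's test in TE (0% of all rows lower and 0% higher), and 6.06% of all rows had an unadjusted p under 0.05. Among members there were 5 of 33 at that level, all higher in KO. Kcnt2, Kcna4, Kcnab1 and Kcnk5 were among them, of which Kcnk5 is named because of these values. The KO libraries were both over the WT libraries in 11 members, against 24% of all rows, and below them in 3, against 12% of all rows. The median member differed by 0.51, against 0.15 over all rows.

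Kcnt2 had a TE of 23.4 and 32.7 in KO against 12.1 and 6.44 in WT (log2 difference 1.65, SE 0.51, adjusted p = 0.796). Kcna4 had a TE of 13.4 and 9.23 in KO against 4.63 and 4.02 in WT (log2 difference 1.36, SE 0.44, adjusted p = 0.806). For Kcnk5 the TE was 5.50 and 6.49 in KO against 1.58 and 0.422 in WT, on footprints of 3.23 and 2.48 FPKM in KO against 0.744 and 0.424 in WT. The TE of Kcnip2 overlapped between groups, at 2.13 and 0.653 in KO against 1.13 and 0.544 in WT (log2 difference 0.59, 95% interval -1.32 to 2.501). Low levels in numerator or denominator make these ratios imprecise.

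Genes outside the prefix that act with these channels were read from a list of 28 partners, of which 24 were tested for footprints and 23 for RNA. None passed for footprints, where 0.126% of all rows fell and 0.253% rose. For RNA, 1 rose and 1 fell, beside 4.2% and 1.53% of all rows, so the counts are near the background. Popdc3, of the Popeye family of cyclic-AMP-binding membrane proteins whose members interact with the stretch-sensitive tandem-pore channel, was 3.595-fold higher in RNA (45.2 and 27.3 FPKM in KO against 9.21 and 10.4 in WT, adjusted p = 0.0288). Popdc3 footprints overlapped, at 5.69 and 9.475 FPKM in KO against 7.29 and 21.7 in WT. Lrrc10, a cardiac leucine-rich repeat protein, was 2.24-fold lower in RNA (46.9 and 43.3 FPKM in KO against 91.5 and 111.4 in WT, adjusted p = 0.0379). Lrrc10 footprints overlapped, at 71.9 and 306.3 FPKM in KO against 140.2 and 147.2 in WT. Dpp6 and Dpp10, other accessory proteins of Kv4 channels, were listed at 0 in all 4 libraries. Ank2, the ankyrin that anchors several channels, had RNA levels of 14.4 and 38.3 FPKM in KO against 79.3 and 79.8 in WT (adjusted p = 0.0629).

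Of 26 transcription factors with a reported role in potassium channel expression, none passed for footprints and 2 fell in RNA, beside 1.53% of all rows. None rose, beside 4.2% of all rows. Klf15, a repressor of hypertrophic growth that controls Kcnip2 rhythms in mouse heart, was 2.23-fold lower in RNA (5.09 and 4.87 FPKM in KO against 11.3 and 10.9 in WT, adjusted p = 0.0431). Its footprints overlapped, at 2.74 and 4.28 FPKM in KO against 2.84 and 4.38 in WT. Thrb, a thyroid hormone receptor, was 5.13-fold lower in RNA (0.722 and 1.80 FPKM in KO against 6.80 and 5.05 in WT, adjusted p = 0.0444). Footprints of Thrb were 6.12 and 9.88 FPKM in KO against 15.99 and 22.0 in WT (adjusted p = 0.294). Irx5, a repressor of Kcnd2 in mouse ventricle, had RNA levels of 7.51 and 7.31 FPKM in KO against 3.76 and 6.60 in WT (adjusted p = 0.280). Irx5 footprints overlapped, at 3.61 and 8.85 FPKM in KO against 5.10 and 5.84 in WT. Like the factors not named here, Irx5 was not called.

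The remaining 65 rows were not measured. Of these, 10 reached 1 FPKM in 1 library: Kcna1, Kcna2, Kcnc4, Kcnd3, Kcnf1, Kcng4, Kcnj13, Kcnmb1, Kcnn4 and Kcnrg. Just outside the minimum, Kcnd3, the second Kv4 subunit, had 0.307 and 0 FPKM of footprints in KO against 0.693 and 3.08 in WT. Just inside it, 4 members reached 1 FPKM in exactly 2 libraries: Kcna7, Kcnd2, Kcnk5 and Kcnma1. A further 23 rows stayed above 0 in some library and under 1 FPKM in all, among them Kcna3, Kcnab3, Kcnc1, Kcnc2, Kcnd1, Kcnd3os, Kcne3, Kcng1, Kcnh1, Kcnh3, Kcnh6, Kcnh7, Kcnh8, Kcnip3, Kcnj10, Kcnj4, Kcnk10, Kcnmb4, Kcnq1ot1, Kcnq3, Kcnt1 and Kcnv2. The last 32 were listed at 0 in every library, among them Kcna10, Kcnab3os, Kcnb2, Kcne2, Kcng3, Kcnh4, Kcnh5, Kcnip1, Kcnip4, Kcnj1, Kcnj14, Kcnj16, Kcnj6, Kcnj9, Kcnk1, Kcnk12, Kcnk15, Kcnk16, Kcnk18, Kcnk4, Kcnk7, Kcnk9, Kcnmb2, Kcnmb3, Kcnmb4os1, Kcnmb4os2, Kcns1, Kcns2, Kcns3, Kcnu1 and Kcnv1. A value of 0 can be a failed estimate and is not read as absence.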

How the data were processed

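Ribosome-protected fragments were profiled in 4 heart libraries (2 KO, 2 WT) with 100 µg/mL cycloheximide, per the labels' protocols. The deposited tables hold footprint FPKM and a TE ratio per Ensembl gene, as the authors computed them. The submitters' processing notes name STAR 2.7.4a and Bowtie 1.3.1 (aligners), cutadapt 3.7 (trimming), FastQC 0.11.9 (read quality), Cufflinks 2.2.1 and HTSeq 0.13.5 (quantification), and GRCm38 (mm10). The sources used here do not give their order, a read-length filter or a strand setting.

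Footprint FPKM over TE was a number of no more than 6 significant digits for 59296 of 59296 values (tolerance 1e-10) and was used as the RNA level. Nothing used here says how the RNA libraries were made. TE values of 0 counted as missing.

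Rows with FPKM of at least 1 in 2 libraries were fitted with limma 3.58.1 (lmFit, eBayes with trend, R 4.3.3, two-sided, no covariates) on log2(FPKM + 1), log2 RNA level and log2 TE. P-values were adjusted by Benjamini-Hochberg over all rows. The fit was tested only on simulated data with large changes and less noise than the median row here. That test does not show how the fit performs on low or noisy genes of these libraries. An exact permutation test of 2 against 2 cannot go below p = 0.333 and was not used. All libraries carry 1 batch label. An interaction model was not used, since the files hold no counts.

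The members and lists were chosen with earlier results of these data known. Members named with values were those called in any readout, those of a list of cardiac channels, and the 4 with the largest rise and fall per readout among members with a mean of at least 5 FPKM in 1 group. Kcna6, Kcnk5, Kcnk13, Kcnn1 and Kcnn3 fall outside this rule and were added after their values were seen. Of the 99 rows, 98 matched a RefSeq gene (GRCm38.p6) by symbol or synonym, and gene spans, names and start-site sequences are RefSeq's. Some of the 99 rows are not reported here by name. They remain in the counts. The span classes and the comparison of the KO libraries were added after the data were seen.

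Replicate numbers are not said to pair libraries. Deviations of the libraries numbered 1 from their group means correlated across genes at -0.056 for footprints, -0.219 for RNA and -0.0178 for TE. Alternatives changed the pseudocount, the minimum, the scaling, the rows fitted, the trend, the block and the libraries included.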

Additional observations from a re-analysis of the deposited data

How the results depend on the processing

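With 2 libraries per group and unknown depth, values near 1 FPKM are imprecise. The number of members called for footprints was 0 and became 1 (Kcnip2) with FPKM of at least 1 in all 4 libraries, and 1 without small RNA genes and unnamed models. For RNA it was 3. It was 0 without a trend, 11 with the replicate block and 3 to 15 when 1 library was left out. The crossed replicate block, chosen after seeing the data because of the negative correlation, gave 15. The 15 without KO replicate 2, 8 without WT replicate 2 and 5 without WT replicate 1 compare with 3 without KO replicate 1. For TE it was 0, and 2 with the replicate block. No other alternative run changed the number of members called by over 1.5 times. The cause of these shifts was not tested.

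Over all rows, the 57 footprint calls became 225 with FPKM of at least 1 in all libraries, 8 with no minimum, 203 without small RNA genes, 36 without a trend, 143 with the replicate block, 34 with a pseudocount of 0.1, and 0 without any single library. The 718 RNA calls became 67 without a trend, 1429 with the block, 3241 with the crossed block, and 704 to 3742 without 1 library. The 0 TE calls became 178 with the block, 0 to 33 without 1 library, and 1 without small RNA genes, without a trend or with RNA of at least 1 FPKM. Replicate numbers share no stated origin, so calls gained under the block are not read further.

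Some signs turned. With median-ratio scaling the footprint differences became -0.32 (Kcnq1), -0.16 (Kcnma1), -0.26 (Kcnj5) and -0.18 (Kcnk3), and the TE differences -0.0277 (Kcnh2), -0.073 (Kcne4) and -0.11 (Kcnj11). The median of the members became -0.17 for footprints and -0.45 for RNA. With 1 library left out, footprint differences ran from -0.15 to 0.25 for Kcnq1, -0.48 to 0.64 for Kcnma1, -0.16 to 0.37 for Kcnj5, -0.49 to 0.81 for Kcnk3, -0.40 to 1.45 for Kcnn2, -0.89 to 0.045 for Kcnab2 and -0.10 to 0.87 for Kcnk2. RNA differences ran from -0.15 to 0.11 for Kcnk3, -0.46 to 0.19 for Kcna4, -0.28 to 0.18 for Kcnj8, -0.87 to 0.066 for Kcna7, -0.36 to 0.046 for Kcnk6 and -0.34 to 0.018 for Kcnq1. TE differences ran from -0.40 to 0.65 for Kcnh2, -0.79 to 0.94 for Kcne4, -0.19 to 0.26 for Kcnj11, -0.033 to 0.46 for Kcnq1, -0.26 to 1.45 for Kcnip2, -0.42 to 1.33 for Kcnj2, -0.55 to 0.94 for Kcnk3, -1.03 to 1.51 for Kcnj15, -0.0236 to 1.05 for Kcnj8, -1.60 to 0.49 for Kcnq5, -0.98 to 0.36 for Kcne1l, -1.06 to 0.10 for Kcnk2 and -0.28 to 1.24 for Kcne1. None of these differences passed in the fit reported.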
